A study of Mus musculus with 2 samples.

Results

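Chemokines are small secreted proteins that guide the migration of blood cells, and their receptors are cell-surface receptors that signal mainly through inhibitory G proteins. They are grouped by the spacing of their leading cysteines into CC, CXC, XC and CX3C families. In bone marrow the ligand Cxcl12 and its receptor Cxcr4 keep hematopoietic stem cells (HSCs) in place, whereas other pairs direct mature leukocytes to inflamed or lymphoid tissue.

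The chemokine genes were taken by symbol as Ccl, Cxcl, Xcl, Cx3cl, Ccr, Cxcr, Xcr or Cx3cr directly followed by a digit. This gave 59 of 23210 genes, 39 ligands and 20 receptors, among them Cxcr7, which is now named Ackr3. Total RNA of mouse HSCs was sequenced in 2 groups, Satb1-Tomato-positive (SATB1-positive) and Satb1-Tomato-negative (SATB1-negative) cells, with 1 library each. SATB1 is a chromatin organizer of lymphoid cells, and Tomato is a red fluorescent protein. Both groups are labelled as CD150+ and Flt3- cells of the LSK fraction (lineage-negative, Sca-1-positive, Kit-positive). No source used here gives the allele's construction, the strain and age of the mice or the number pooled per library.

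Values are FPKM, fragments per kilobase of transcript and per 1000000 mapped fragments, so that levels of different genes can be set side by side. With 1 library per group there is no replicate check, and differences carry no p-value. The rule of size calls a gene higher if the log2 ratio of FPKM + 1, SATB1-positive over SATB1-negative, reaches 1, and lower if it reaches -1, provided that 1 of the libraries has 5 FPKM or more. Folds are plain ratios of FPKM, SATB1-positive over SATB1-negative, and the 95% interval beside each covers counting error only, not the spread between animals or sorts. The intervals rest on estimated depths of about 26660000 fragments in the SATB1-positive and 34880000 in the SATB1-negative library. Fragments copied by PCR are counted as separate, so the intervals can be too narrow.

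Chemokine ligand transcripts were more abundant in SATB1-positive HSCs, led by the CC chemokines Ccl3, Ccl4, Ccl5 and Ccl9 and the CXC chemokine Cxcl2. The 39 ligands summed to 283 FPKM in the SATB1-positive and 136 FPKM in the SATB1-negative library, a ratio of 2.07, while the sum over all genes had a ratio of 0.998. By the rule of size 5 ligands, 12.8%, were higher, against 0.526% of all 23210 genes, and 0 were lower, against 0.276% of all genes. The receptors summed to 57.2 FPKM in the SATB1-positive and 23.4 FPKM in the SATB1-negative library, a ratio of 2.44, and 1 of 20, Cxcr6, was higher by the rule and 0 lower. Of the 59 genes, 13 ligands and 9 receptors reached 1 FPKM in a library and are called measured, while 26 ligands and 11 receptors did not.

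Of the inflammatory CC ligands, Ccl4 (MIP-1 beta, an attractant of monocytes and lymphocytes) was the most abundant chemokine transcript in either library, at 107 FPKM in SATB1-positive and 55.3 FPKM in SATB1-negative cells. Its fold of 1.93 (1.77 to 2.11) lay just under the rule of size, with a log2 ratio of 0.94. Ccl3 (MIP-1 alpha, which binds Ccr1 and is known to restrain stem cell proliferation) was at 52.0 FPKM in SATB1-positive and 16.9 FPKM in SATB1-negative cells. That is a fold of 3.07 (2.70 to 3.50) on about 779 and 332 fragments. Ccl5 (RANTES, typical of T and natural killer cells) had 36.7 FPKM in SATB1-positive and 8.88 FPKM in SATB1-negative cells. It was 4.13-fold higher (3.29 to 5.20), with about 321 and 102 fragments. The 3 genes together summed to 196 FPKM in SATB1-positive and 81.1 FPKM in SATB1-negative cells, and made up 69.2% of the summed ligand FPKM in SATB1-positive and 59.5% in SATB1-negative cells, so these genes made up most of the ligand sum in each library.

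Of the 2 ligands grouped with Ccr1 alone, Ccl9 was higher and Ccl6 did not pass the rule. Ccl9 (MIP-1 gamma, a rodent chemokine of myeloid cells) was at 15.4 FPKM in SATB1-positive and 3.35 FPKM in SATB1-negative cells, 4.60-fold higher (4.06 to 5.21). Its neighbour Ccl6, a rodent chemokine of myeloid cells as well, was at 17.2 FPKM in SATB1-positive and 12.4 FPKM in SATB1-negative cells. The fold of Ccl6 was 1.39 (1.23 to 1.57), which is smaller than that of Ccl9 beyond counting error. In the order of ligand levels Ccl9 had rank 6 in the SATB1-positive library, next after Ccl6, and rank 11 in the SATB1-negative library, behind Cx3cl1, Cxcl12 and Cxcl10.

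Among CXC and XC ligands, Cxcl2 (MIP-2, a neutrophil attractant acting through Cxcr2) had 18.5 FPKM in SATB1-positive and 7.13 FPKM in SATB1-negative cells, a fold of 2.59 (2.2 to 3.06). The Cxcr2 ligands Cxcl1, Cxcl3 and Cxcl5 were under 1 FPKM in both libraries, while the product of Ppbp, given with the signalling genes, also acts through Cxcr2. Of Cxcl2 itself 5.84% of the 50-base transcript words also occur in Cxcl3. Xcl1 (lymphotactin, a ligand of lymphocytes for Xcr1 on dendritic cells) was at 5.27 FPKM in SATB1-positive and 0.869 FPKM in SATB1-negative cells. This 6.07-fold difference (2.93 to 13.1) rested on about 45 and 10 fragments. Cxcl10, an interferon-induced ligand of Cxcr3, was at 6.68 FPKM in SATB1-positive and 4.17 FPKM in SATB1-negative cells, a fold of 1.60 (1.26 to 2.03), which did not pass the rule. With a pseudocount of 5 FPKM in place of 1, the log2 ratios of Cxcl2 and Xcl1 were 0.95 and 0.81, under the threshold, while those of Ccl3, Ccl5 and Ccl9 were 1.38, 1.59 and 1.29.

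**Figure D1:**
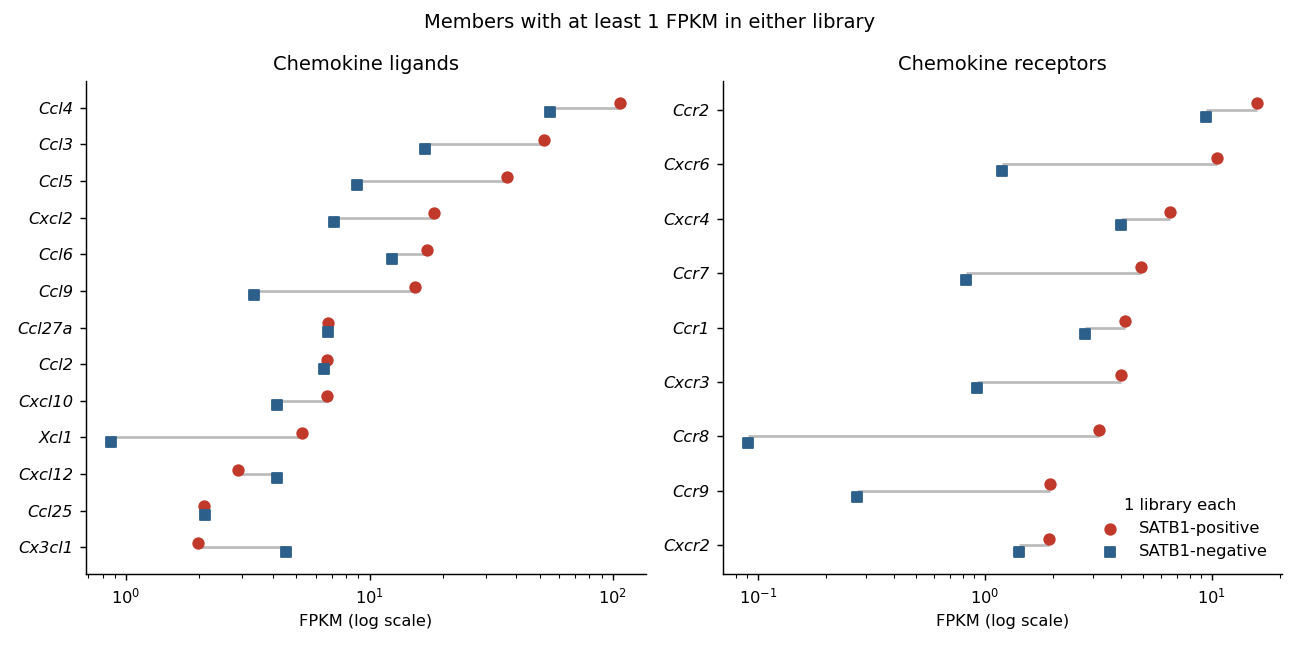
FPKM of the 13 ligands and 9 receptors with at least 1 FPKM in either library, on a log axis, with 1 point per library (circles SATB1-positive, squares SATB1-negative). Ccl4 leads the ligands in both libraries, and Cxcl12, Ccl25, Ccl27a and Cx3cl1 are the ligands whose SATB1-positive value is not the higher one.

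Cx3cl1 and Cxcl12 were the measured ligands with a fold below 1 by more than counting error, though neither passed the rule of size. Cx3cl1 (fractalkine, a membrane-bound ligand of Cx3cr1) was at 1.97 FPKM in SATB1-positive and 4.52 FPKM in SATB1-negative cells. Its fold was 0.436 (0.364 to 0.523) and its log2 ratio -0.89. It was the 1 measured ligand with a plain ratio of 0.5 or less, a ratio that 0.944% of all genes had with at least 1 FPKM in the SATB1-negative library. Cxcl12 (SDF-1, the retention signal of marrow stroma) was at 2.87 FPKM in SATB1-positive and 4.19 FPKM in SATB1-negative cells, a fold of 0.686 (0.550 to 0.853). Markers of stromal and endothelial cells had folds on both sides of 1. Without Cxcl12 that list summed to 113 FPKM in SATB1-positive and 54.8 FPKM in SATB1-negative cells. Against 0.526% of all genes, 4 of its 10 genes were higher by the rule. These were Col1a1, Col1a2, Pdgfrb and Sparc, and Col1a1, a collagen gene, was at 48.3 FPKM in SATB1-positive and 16.8 FPKM in SATB1-negative cells. Lepr, a marker of Cxcl12-rich stroma, was at 0.189 FPKM in SATB1-positive and 0.126 FPKM in SATB1-negative cells, and no marker was listed at 0. The endothelial gene Kdr was at 0.378 FPKM in SATB1-positive and 0.839 FPKM in SATB1-negative cells (fold 0.451, 0.331 to 0.616). Cdh5 was at 0.00989 and 0.0837 FPKM in the same order (fold 0.118, 0.00276 to 0.818), on about 1 and 11 fragments. Both folds were below 1, as those of Cxcl12 and Cx3cl1 were. Pecam1, the most abundant endothelial gene of the list, went the other way. It was at 22.9 FPKM in SATB1-positive and 20.6 FPKM in SATB1-negative cells (fold 1.11, 1.04 to 1.19). The part of such cells in the Cxcl12 and Cx3cl1 values was not tested.

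The other measured ligands, Ccl2, Ccl25 and Ccl27a, had folds whose intervals include 1. Ccl2 (MCP-1, the Ccr2 ligand that draws monocytes out of marrow) was at 6.71 FPKM in SATB1-positive and 6.50 FPKM in SATB1-negative cells, a fold of 1.03 (0.796 to 1.34). Ccl25, the thymic and intestinal ligand of Ccr9, had 2.09 FPKM in SATB1-positive and 2.10 FPKM in SATB1-negative cells (fold 0.992, 0.654 to 1.45). Ccl27a, a skin chemokine, had 6.77 FPKM in SATB1-positive and 6.78 FPKM in SATB1-negative cells (fold 0.998, 0.562 to 1.66). The values of Ccl25 and Ccl27a are uncertain, because exons of Ccl25 and Ccl27a overlap those of Elavl1 and Il11ra1 on the opposite strand and 45% of the 50-base words of Ccl27a occur in other genes. Elavl1 was at 61.4 FPKM in SATB1-positive and 64.8 FPKM in SATB1-negative cells, and Il11ra1 at 19.9 and 29.2 FPKM in the same order.

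Among receptors the highest ratios belonged to those of lymphocyte subsets. Cxcr6 (receptor of Cxcl16 on T, natural killer and innate lymphoid cells) was at 10.6 FPKM in SATB1-positive and 1.19 FPKM in SATB1-negative cells. It was 8.86-fold higher (6.93 to 11.6) on about 477 and 70 fragments, and its log2 ratio of 2.40 ranked 18 among 9308 genes at or above 5 FPKM in a library. Ccr7 (receptor of Ccl19 and Ccl21 for entry into lymph nodes) was at 4.90 FPKM in SATB1-positive and 0.828 FPKM in SATB1-negative cells, a fold of 5.92 (4.38 to 8.23). Its level, just under 5 FPKM, kept it outside the rule of size. Cxcr3 (receptor of the interferon-induced chemokines on T and natural killer cells) was at 3.97 FPKM in SATB1-positive and 0.922 FPKM in SATB1-negative cells, a fold of 4.31 (3.12 to 6.08).

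Ccr9 (the Ccl25 receptor, which together with Ccr7 is known to direct lymphoid progenitors to the thymus) was at 1.94 FPKM in SATB1-positive and 0.272 FPKM in SATB1-negative cells, a fold of 7.14 (4.73 to 11.6). Ccr8, found on subsets of regulatory and helper T cells, was at 3.18 FPKM in SATB1-positive and 0.0906 FPKM in SATB1-negative cells. About 82 and 3 fragments lay behind these levels, and the ratio of 35.1 had an interval of 11.8 to 177. Ccr7, Ccr8, Ccr9 and Cxcr3 were measured through the SATB1-positive library alone, as was the ligand Xcl1, which fixed the sign of their ratios. By a plain ratio of 2 or more in measured genes above 0 in both libraries, 5 of 20 receptors were higher, against 1.15% of all genes. The 9 receptors of lymphocyte subsets (Cxcr3, Cxcr5, Cxcr6, Ccr4, Ccr6, Ccr7, Ccr8, Ccr9 and Ccr10) summed to 25.6 FPKM in SATB1-positive and 3.99 FPKM in SATB1-negative cells, or 44.7% and 17.0% of the receptor total.

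Most markers of T cells and of natural killer and innate lymphoid cells had a log2 ratio above 0. These were 11 of 12 and 11 of 13 markers, measured or not, while 5821 of all 11873 measured genes lay above 0. The 9 measured receptors lay above 0 as well, but the 1 FPKM minimum fixed that sign for Ccr7, Ccr8, Ccr9 and Cxcr3. By the rule of size 4 of 12 T cell markers were higher, against 0.526% of all genes, and 0 lower, against 0.276%. The T cell markers summed to 134 FPKM in SATB1-positive and 88.2 FPKM in SATB1-negative cells. The highest ratios among them were Cd3e (15.4 FPKM in SATB1-positive and 2.76 FPKM in SATB1-negative cells), Cd3g (13.2 and 2.95 FPKM in the same order) and Cd3d (5.68 and 1.38 FPKM), all parts of the T cell receptor complex. The signalling adaptor Lat, which was the most abundant member, was at 50.9 FPKM in SATB1-positive and 58.8 FPKM in SATB1-negative cells. Of 13 markers of natural killer and innate lymphoid cells 2 passed as higher, Il2rb (13.6 FPKM in SATB1-positive and 1.69 FPKM in SATB1-negative cells) and Il7r (7.64 and 0.727 FPKM in the same order), which encode cytokine receptor chains, and the list summed to 60.3 FPKM in SATB1-positive and 30.1 FPKM in SATB1-negative cells. Other markers of that list were at like levels in both libraries, with fold intervals that include 1. Gata3, its most abundant marker in SATB1-negative cells, was at 11.3 FPKM in SATB1-positive and 11.5 FPKM in SATB1-negative cells (fold 0.982). Rora was at 9.54 and 9.83 FPKM in the same order (fold 0.970), and Zbtb16 at 1.49 and 1.48 FPKM. No marker of the T cell list or of the natural killer and innate lymphoid list was listed at 0 in either library. The part of T, natural killer or innate lymphoid cells in the receptor, Ccl5 and Xcl1 values was not tested, and in bulk RNA fewer cells of a type and less RNA per cell cannot be told apart.

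Measured receptors of myeloid cells had folds nearer to 1 than those of lymphocyte subsets. By the rule 0 of 7 were called, against 0.526% of all genes higher and 0.276% lower. Ccr2 alone of the 7 reached the 5 FPKM minimum, so the others could not pass whatever their ratio. Among the receptors of lymphocyte subsets 1 of 9 passed. Ccr2 (receptor of Ccl2 on monocytes and their progenitors) was the most abundant chemokine receptor transcript in both libraries, at 15.8 FPKM in SATB1-positive and 9.41 FPKM in SATB1-negative cells, a fold of 1.68 (1.54 to 1.84). Ccr1, the shared receptor of Ccl3, Ccl5, Ccl6 and Ccl9, was at 4.14 FPKM in SATB1-positive and 2.76 FPKM in SATB1-negative cells, a fold of 1.5 (1.27 to 1.79). Cxcr2, the receptor of Cxcl2 on neutrophils, was at 1.91 FPKM in SATB1-positive and 1.42 FPKM in SATB1-negative cells, a fold of 1.35 (1.06 to 1.71). The 7 genes of this group summed to 23.9 FPKM in SATB1-positive and 15.1 FPKM in SATB1-negative cells, a ratio of 1.59 against 6.42 for the receptors of lymphocyte subsets. Cxcr4, the Cxcl12 receptor that retains HSCs in marrow, was at 6.53 FPKM in SATB1-positive and 4.0 FPKM in SATB1-negative cells, a fold of 1.63 (1.37 to 1.96).

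**Figure D2:**
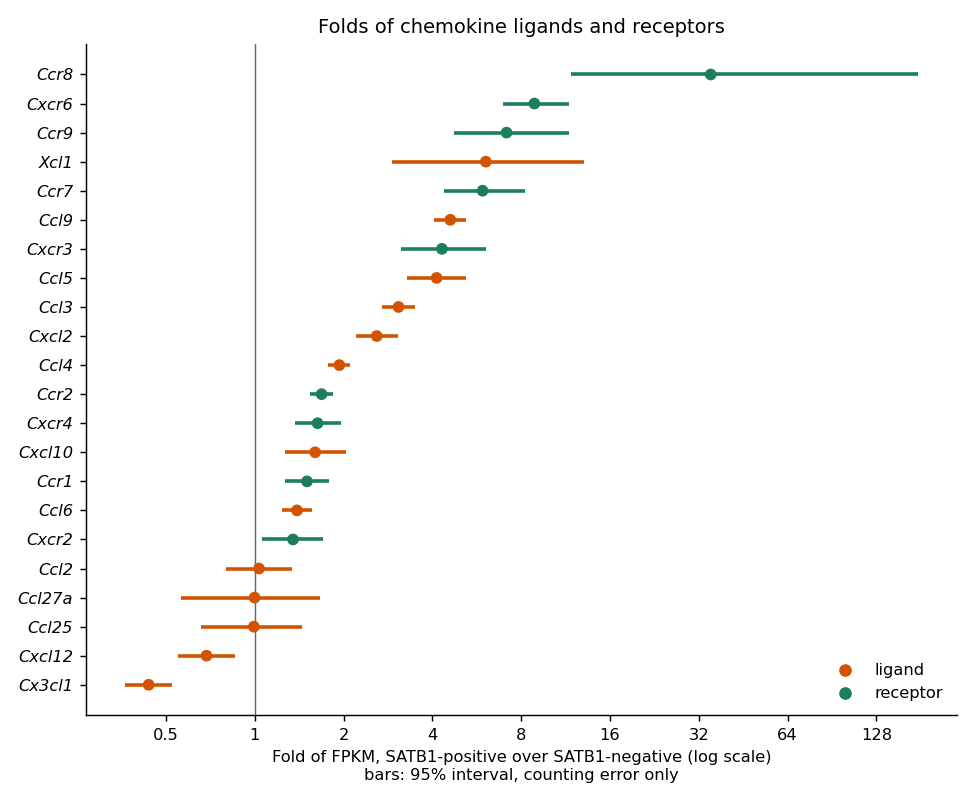
Fold of FPKM, SATB1-positive over SATB1-negative, on a log axis for the 22 ligands and receptors with at least 1 FPKM in either library; points are ratios of 1 library each and bars 95% intervals for counting error. The intervals of Ccl2, Ccl25 and Ccl27a include 1, and the other 19 do not.

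Myeloid marker lists differed by cell type. Over all genes 0.526% were higher and 0.276% lower by the rule, the shares to set beside each count below. Granulocyte-monocyte progenitor markers summed to 3301 FPKM in SATB1-positive and 1263 FPKM in SATB1-negative cells, and 6 of 10 were higher by the rule, among them Ctsg, Ms4a3 and myeloperoxidase (Mpo), which was at 1528 FPKM in SATB1-positive and 437 FPKM in SATB1-negative cells. Among 11 basophil and mast cell markers 6 passed as higher, among them Mcpt8, Fcer1a and Cpa3, with sums of 745 FPKM in SATB1-positive and 329 FPKM in SATB1-negative cells. The basophil protease gene Prss34 was at 360 FPKM in SATB1-positive and 107 FPKM in SATB1-negative cells, while the mast cell proteases Cma1 and Tpsb2 were listed at 0 in SATB1-negative cells. Of these 11 markers 9 had a log2 ratio above 0, and Gata2 and Il4 went the other way. Gata2, the most abundant of them in SATB1-negative cells, was at 137 FPKM in SATB1-positive and 153 FPKM in SATB1-negative cells (fold 0.899, 0.877 to 0.922). Il4 was at 1.78 and 2.30 FPKM in the same order (fold 0.772, 0.400 to 1.40). Neutrophil markers without Cxcr2 summed to 646 FPKM in SATB1-positive and 763 FPKM in SATB1-negative cells with 0 of 10 past the rule. Monocyte and macrophage markers without chemokine receptors summed to 834 FPKM in SATB1-positive and 641 FPKM in SATB1-negative cells, also with 0 of 12 past the rule. The part of these cell types in the levels of Ccl3, Ccl4, Ccl6, Ccl9, Cxcl2, Ccr1 and Ccr2 was not tested. Dendritic cell markers (226 FPKM in SATB1-positive and 212 FPKM in SATB1-negative cells, 0 of 10 past the rule), B and plasma cell markers (71.6 and 52.0 FPKM in the same order, 1 of 9 higher, with Pax5 listed at 0 in SATB1-positive and Igll1 in SATB1-negative cells) and erythroid markers (477 and 313 FPKM, 1 of 8 higher) complete the lists. HSC markers were present in both libraries, with sums of 735 FPKM in SATB1-positive and 971 FPKM in SATB1-negative cells, and 0 of 11 past the rule. Of these 11 markers 10 had a log2 ratio below 0, with a median of -0.53 over the list. Hoxb5, a transcription factor gene of long-term HSCs, was at 1.08 FPKM in SATB1-positive and 3.74 FPKM in SATB1-negative cells (fold 0.290, 0.208 to 0.397), under the 5 FPKM minimum. Esam was at 34.2 FPKM in SATB1-positive and 68.5 FPKM in SATB1-negative cells (fold 0.499, 0.470 to 0.529), and Kit at 286 and 318 FPKM in the same order. Whether this difference in HSC markers has a part in the chemokine values was not tested.

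Set by ligand and receptor, abundance was uneven within pairs. Cxcl16, the ligand of Cxcr6, was at 0.467 FPKM in SATB1-positive and 0.782 FPKM in SATB1-negative cells, a fold of 0.597 (0.377 to 0.925). For Xcl1 the receptor Xcr1 was at 0.123 FPKM in SATB1-positive and 0.149 FPKM in SATB1-negative cells, and for Cx3cl1 the receptor Cx3cr1 was at 0.499 and 0.514 FPKM in the same order. The Ccr7 ligands Ccl19, Ccl21a, Ccl21b and Ccl21c were listed at 0 in both libraries, and 52.0%, 71.6% and 100% of the 50-base words of Ccl19, Ccl21a and Ccl21b occur in near-identical copies. Cxcl16, Xcr1, Cx3cr1 and these Ccr7 ligands were chosen after their values were seen.

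Most members under 1 FPKM in both libraries rested on few fragments. Besides the Ccr7 ligands, Ccl8, Ccl11, Ccl12, Ccl27b and Ccl28 were listed at 0 in both libraries, Ccl22, Ccl26, Cxcl11, Cxcl13 and Cxcl17 in SATB1-positive cells alone, and Ccl1 and Cxcl14 in SATB1-negative cells alone. Cxcl14 had about 9 fragments and Ccl1 about 5 in the SATB1-positive library, and Ccl24 about 1 fragment in each library, so their levels rest on very few fragments. Ccl7, Ccl17, Ccl20, Cxcl9 and Cxcl15 were the other ligands in this range. The receptors under 1 FPKM ran between 0.123 FPKM for Xcr1 and 0.878 FPKM for Ccr3 in SATB1-positive cells, and between 0.0891 FPKM for Ccr4 and 0.514 FPKM for Cx3cr1 in SATB1-negative cells. Ccr3, an eosinophil and basophil receptor named after its values were known, was at 0.878 FPKM in SATB1-positive and 0.450 FPKM in SATB1-negative cells (fold 1.95, 1.34 to 2.89). Further receptors in this range were Ccr6, Ccr10, Ccr1l1, Cxcr1, Cxcr5 and Cxcr7.

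Chemokine genes lie in clusters, and neighbours within a cluster did not share one size of difference. On the mm10 assembly Ccl5, Ccl9, Ccl6, Ccl3 and Ccl4 occupy chromosome 11 between positions 83525778 and 83664683. The log2 ratios of these 5 ran between 0.44 and 1.93, with 3 of 5 higher by the rule of size, against 0.526% of all genes. A further group on the same chromosome, Ccl2, Ccl7, Ccl11, Ccl12, Ccl8 and Ccl1, between 82035571 and 82305690, had 1 measured member, Ccl2, with a log2 ratio of 0.04. In a cluster on chromosome 9, 4 of 8 receptor genes were measured, and their log2 ratios ran between 0.45 for Ccr1 and 2.40 for Cxcr6. Cxcr6 lies within the body of Fyco1 on the opposite strand without shared exons, and Fyco1 was at 5.51 FPKM in SATB1-positive and 5.01 FPKM in SATB1-negative cells. The non-chemokine genes of that stretch, Gm10052, Lztfl1 and Fyco1, had log2 ratios between -0.12 and 0.12.

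**Figure D3:**
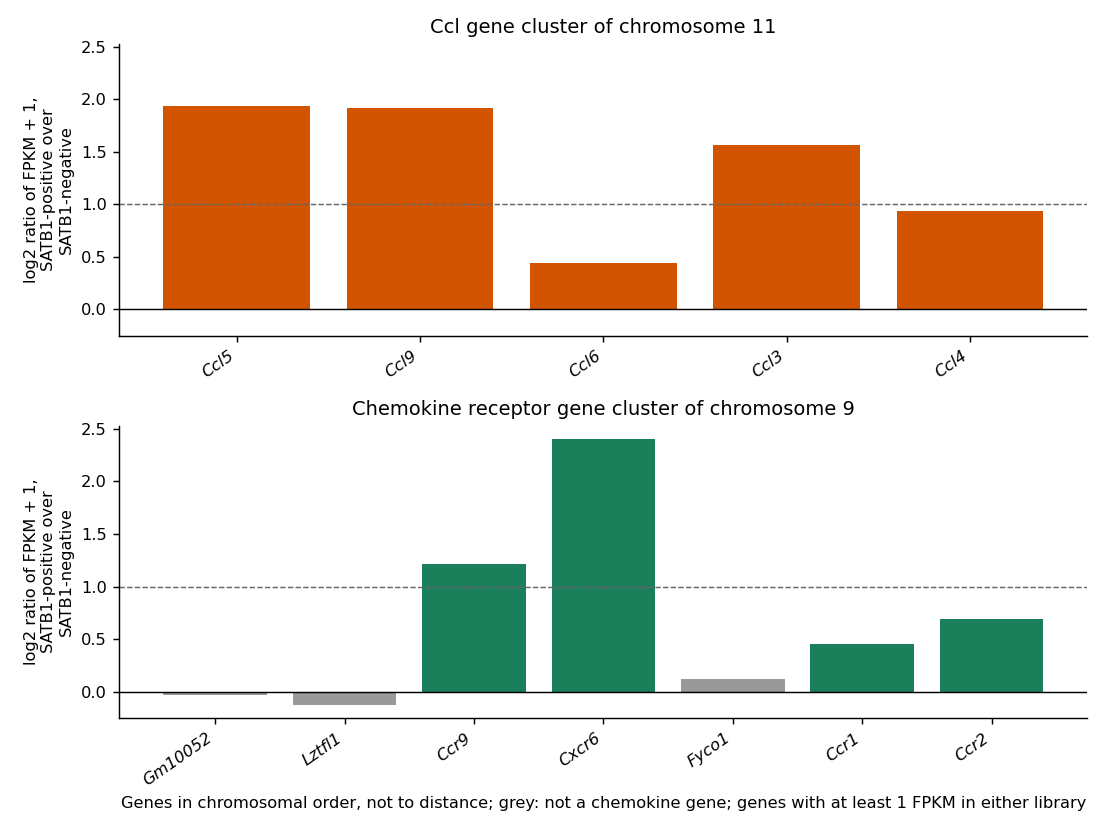
log2 ratio of FPKM + 1, SATB1-positive over SATB1-negative, for measured genes in chromosomal order in the Ccl cluster of chromosome 11 (orange, ligands) and the receptor cluster of chromosome 9 (green, receptors), with other genes in grey and a dashed line at 1. Ccl5, Ccl9 and Ccl3 exceed 1 in the upper panel and Cxcr6 and Ccr9 in the lower one; bars carry no error because each group is 1 library.

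The sequences before the transcription start were looked at for 4 motifs in the genes that passed the rule of size, because the counts of higher members turn on these genes. RefSeq promoter windows on GRCm38.p6 matched 5 of these 6 genes. Ccl5 had no matching window and was not searched. For the 5 matched genes 250 bases before each start were searched on both strands. The motifs were the NF-kB consensus, the AP-1 letters TGANTCA, the Runx letters TGTGGT and the TATA letters TATAAA. Over 32851 windows of the same length 3.90% held the NF-kB consensus, 6.75% AP-1, 14.1% Runx and 12.4% TATA. Shown are the last 150 bases before the start, 5′ to 3′ on the gene's strand, for an inflammatory CC, a myeloid CC and a CXC ligand and for the receptor, with NF-kB, AP-1 and Runx matches in capitals.
Ccl3 (chr11:83649379-83649528, minus strand): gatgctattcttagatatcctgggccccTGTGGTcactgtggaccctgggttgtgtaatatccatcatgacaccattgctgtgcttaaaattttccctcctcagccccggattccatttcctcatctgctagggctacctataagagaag
Ccl9 (chr11:83578637-83578786, minus strand): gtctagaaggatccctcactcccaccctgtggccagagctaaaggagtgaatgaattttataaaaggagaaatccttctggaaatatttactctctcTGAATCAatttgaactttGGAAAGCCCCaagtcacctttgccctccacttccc
Cxcl2 (chr5:90903749-90903898, plus strand): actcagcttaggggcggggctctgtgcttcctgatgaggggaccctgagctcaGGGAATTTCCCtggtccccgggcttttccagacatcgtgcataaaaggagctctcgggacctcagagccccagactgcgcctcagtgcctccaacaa
Cxcr6 (chr9:123806327-123806476, plus strand): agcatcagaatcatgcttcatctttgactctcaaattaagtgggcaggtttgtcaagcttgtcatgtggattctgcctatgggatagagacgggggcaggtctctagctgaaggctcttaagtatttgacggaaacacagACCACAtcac
Cxcl2 held overlapping NF-kB matches on both strands 97 to 87 bases before the start, and Ccl9 held 1 on the minus strand 35 to 26 bases before it, beside an AP-1 match 53 to 47 bases before it and TATA matches on both strands 94 to 87 bases before it. Ccl3 held a Runx match 122 to 117 bases and Cxcr6 1 on the minus strand 10 to 5 bases before the start. The Xcl1 window held a Runx match 227 to 222 bases before the start, outside the stretch length shown for the others. These are matches of letters, and no factor's binding was measured.

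Genes that act with chemokines were mostly at like levels in both libraries. Of 57 such genes 3 were higher by the rule of size, against 0.526% of all genes, and 0 lower. Their median log2 ratio was 0.05 over 52 measured genes, against -0.01 over all 11873 measured genes. The medians over every member, measured or not, were 0.00 for the 39 ligands and 0.37 for the 20 receptors, against 0.00 for all genes, while those over measured members, 0.57 and 1.21, include genes whose sign the 1 FPKM minimum fixed. The 3 were the platelet chemokine gene Ppbp (11.2 FPKM in SATB1-positive and 2.27 FPKM in SATB1-negative cells, 4.96-fold, 3.81 to 6.60) and the granule proteases Ctsg and Elane, which can cleave chemokines. Ctsg was at 111 FPKM in SATB1-positive and 31.9 FPKM in SATB1-negative cells, and Elane at 1081 and 490 FPKM in the same order. Ppbp and Pf4 encode CXC chemokines under symbols of their own and lie among the Cxcl genes of chromosome 5. Pf4 was at 71.2 FPKM in SATB1-positive and 39.1 FPKM in SATB1-negative cells, a fold of 1.82 (1.62 to 2.04). Of 8 platelet and megakaryocyte markers, to which both belong, 1 passed as higher, and the list summed to 403 FPKM in SATB1-positive and 497 FPKM in SATB1-negative cells with none at 0.

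Signal transduction genes and atypical receptors gave 0 calls in either direction. The G protein subunit Gnai2, which couples chemokine receptors, was at 333 FPKM in SATB1-positive and 322 FPKM in SATB1-negative cells, and Gnai1 at 0.576 and 1.32 FPKM in the same order (fold 0.437, 0.304 to 0.615), the lowest log2 ratio of the measured genes of this list. Both were named after their values were known. Rgs18, a regulator that shortens G protein signals, was at 272 FPKM in SATB1-positive and 349 FPKM in SATB1-negative cells (fold 0.782, 0.765 to 0.799). Ccrl2, an atypical receptor that binds chemerin, was at 20.7 FPKM in SATB1-positive and 26.0 FPKM in SATB1-negative cells (fold 0.797, 0.733 to 0.865). Rgs18 and Ccrl2 had the lowest log2 ratios of FPKM + 1 among the genes of this list with at least 5 FPKM, and the kinase gene Ptk2 followed at 5.82 FPKM in SATB1-positive and 7.42 FPKM in SATB1-negative cells (fold 0.785, 0.711 to 0.866). Darc (now Ackr1), an atypical receptor known on erythroid and endothelial cells, was at 0.549 FPKM in SATB1-positive and 1.27 FPKM in SATB1-negative cells. The atypical receptors Cxcr7, Ccrl1 and Ccbp2 lay at 0.189, 0.157 and 0.0435 FPKM in SATB1-positive cells and at 0.121, 0.136 and 0 FPKM in SATB1-negative cells, and Cmklr1 was listed at 0 in both.

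**Figure D4:**
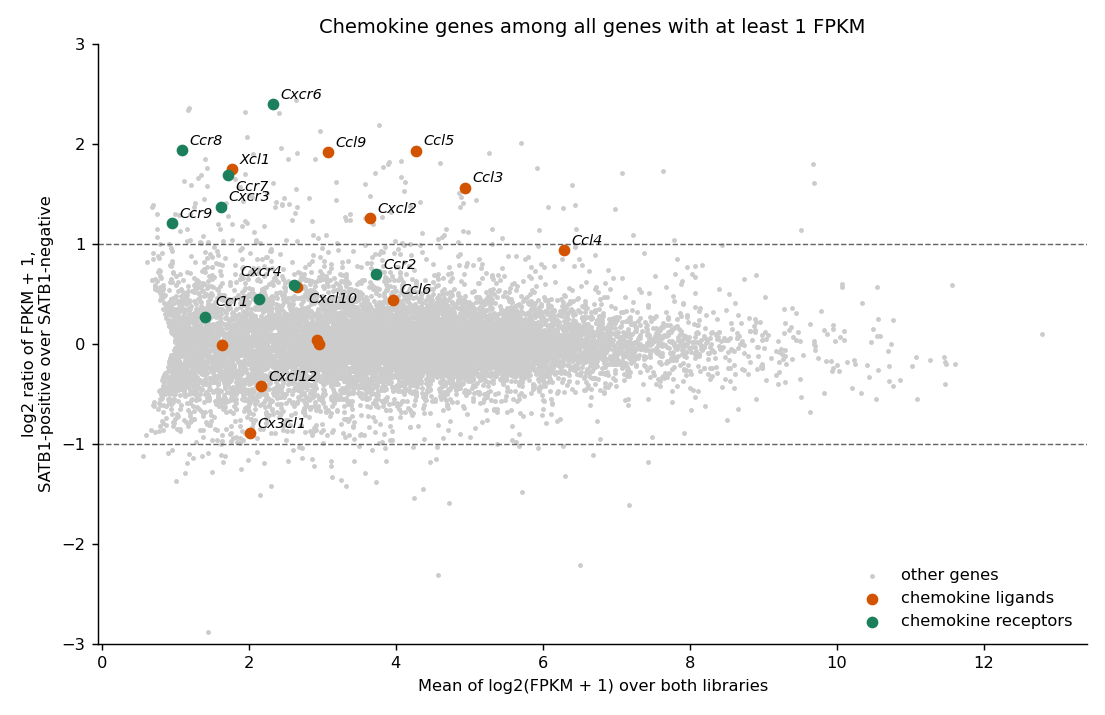
log2 ratio of FPKM + 1, SATB1-positive over SATB1-negative, against the mean of log2(FPKM + 1) for the 11873 measured genes (grey), with ligands in orange, receptors in green and dashed lines at 1 and -1; 38 genes lie outside the range of -3 to 3. Cxcr6, Ccl5, Ccl9, Ccl3, Cxcl2 and Xcl1 lie above the upper line, as do Ccr7, Ccr8, Ccr9 and Cxcr3, which are under 5 FPKM.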

How the data were processed

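Per the file headers, the deposited values are FPKM, with 1 value per symbol and library. Cufflinks 2.2.1, SAMtools 0.1.19, Bowtie2 2.2.3, TopHat2 2.0.13 and the build mm10 appear in the submitters' processing notes. The library kit is stranded, per the labels' protocols, but no source used here names the annotation or says whether strand was used in counting. In each file 25 of 23235 rows, whose symbols had become dates, were left out.

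Depth was estimated from low values of single-exon, single-transcript genes of GENCODE M21 (mm10), which step by 1 fragment. With a length offset of 205 bases, 59.3% of 241 SATB1-positive and 57.8% of 211 SATB1-negative values were whole within 0.05 fragments, against 10% for a random depth. The search chose this fit, so 10% is not its chance level. Fragments per gene used the shortest RefSeq-linked transcript, and 58 of 59 chemokine genes matched. Fold intervals are exact Clopper-Pearson intervals on the split of fragments (scipy 1.17.1). The rule was tested on simulated data.

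Named with values were members at 1 FPKM or more, and of the signalling list the genes past the rule, those with the 2 highest and 2 lowest log2 ratios at 5 FPKM or more, and the atypical receptors. Marker genes were named by level or call, where a result touches them. Lepr, Kdr, Cdh5, Pecam1, Gata2, Il4, Gata3, Rora, Zbtb16, Hoxb5, Esam and Ptk2 were named after their values were seen. The members, lists and receptor groups were chosen with earlier results of these data known. A few genes of these lists are not reported here.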

Additional observations from a re-analysis of the deposited data

How the results depend on the processing

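With 1 library per group, leaving out a library was not possible, and no replicate spread limits these values. No paired analysis was possible because each group has 1 library. With a pseudocount of 5 FPKM the ligands counted as higher were 3 instead of 5, and all genes 68 higher and 36 lower instead of 122 and 64. At a 4-fold threshold 0 ligands and 0 signalling genes were higher, and all genes gave 24 higher and 25 lower; at a 1.5-fold threshold 3 receptors were higher, and all genes gave 354 and 270. A minimum of 1 FPKM, or no minimum, gave 5 receptors higher, with 164 higher and 81 lower of all genes. Scaling to a sum of 1000000, which raises every FPKM here, gave 4 receptors higher, 1 ligand lower and, of all genes, 174 higher and 100 lower. The ligand median log2 ratio of 0.57 was 0.67 with a pseudocount of 0.1, 0.35 with 5, 0.62 after scaling to 1000000, 0.00 over all members and 1.10 over members with at least 5 FPKM. The receptor median of 1.21 was 1.99, 0.53, 1.66, 0.37 and 0.69 under the same settings. Scaling by the median ratio or upper quartile moved ratios by under 0.01 on the log2 scale. With the longest transcript 19 members again had an interval without 1. The log2 ratios of 24 named genes had 120 alternative values. Of these, 104 shifted from the main log2 ratio by no more than the counting interval extends from the fold on the log2 scale. The other 16 shifted by more, and 0 of the called values changed sign. Only sizes of shift were compared, so a value among the 104 can lie outside its printed interval. With a pseudocount of 5 the log2 ratio of Xcl1, at 0.81, lay outside its fold interval of 2.93 to 13.1.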
